A study of Homo sapiens with 22 samples.

Results

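The 49 DNA replication and S-phase genes described here were taken from a list of names, with no threshold on a measured value, although earlier results of these data were known when the list was made: the origin recognition and licensing factors, the MCM2-7 helicase and its activators, primase and the replicative polymerases, the sliding clamp and its loader, replication protein A, the nuclease and ligase of Okazaki fragments, the enzymes of nucleotide supply, and the cyclins, kinase and transcription factor that drive entry into S phase. All 49 were measured among the 19775 genes of the array, each read from its brightest probeset (mean log2 signal over the arrays) out of those annotated to that gene only. The data were 22 Affymetrix arrays of 11 human neuroblastoma cell lines, with 1 array for each line cultured in hypoxia (1% O2) and 1 for each line in normoxia (20% O2), for 18 h. The study set hypoxia against normoxia to find the transcripts that oxygen shortage changes in this childhood tumor of the sympathetic nervous system. SHEP-2, SHEP21N labelled with MYCN overexpression and SHEP21N without it came from a research laboratory, and GI-LI-N, ACN, SK-N-BE2(C), IMR-32, SK-N-F1, LAN-1, SK-N-SH and GI-ME-N came from a cell line collection. SHEP21N labelled without MYCN overexpression was kept in 50 ng/mL tetracycline, and the labels name no agent for the other lines. Signals are given as relative signals, in units of the median signal on that array, and a change is the log2 ratio of hypoxia over normoxia within a line. The number of arrays limits the precision, because no line had a second culture in either condition and the spread is that between lines, some of which are related.

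DNA is copied once in each cell cycle. In G1 the origin recognition complex, CDC6 and CDT1 load the MCM2-7 ring onto origins. Cyclin-dependent kinases then fire the origins by joining CDC45 and the GINS complex to the ring, while geminin stops it from being loaded again. Many of these genes are read from promoters that bind E2F, so that their transcripts peak around the start of S phase, and proliferating tumor lines generally carry them at high levels.

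The labels were checked before the members were read. BNIP3 and VEGFA, textbook targets of the hypoxia-inducible factors, were higher in hypoxia in 11 of 11 lines, with mean log2 changes of 1.88 and 1.99 (adjusted p = 0.0128 and 0.0148, limma). VEGFA missed the adjusted limit without GI-LI-N (adjusted p = 0.0523, limma). MYCN, whose amplification marks aggressive neuroblastoma, differed by 0.02. Its relative signal was 70.3 or more in hypoxia and 72.9 or more in normoxia in GI-LI-N, SK-N-BE2(C), IMR-32, SK-N-F1, LAN-1 and SK-N-SH, and below 0.5 in the other lines. The line labelled SHEP21N with MYCN overexpression had 0.0650 in hypoxia and 0.177 in normoxia at this probeset, so the brightest MYCN probeset did not show the labelled overexpression, and both SHEP21N lines are called by their labels below. The lines labelled SK-N-SH and IMR-32 correlated at r = 0.931 over all genes in normoxia, and those labelled SK-N-SH and GI-LI-N at r = 0.925, above the 0.903 of the SHEP21N pair (11 lines on 1 platform). SK-N-SH is known as a line without MYCN amplification and as the parent of SHEP, so the MYCN signals of 490 in hypoxia and 421 in normoxia go against that label. GATA3, a transcription factor of adrenergic neuroblastoma, was at 0.0982 in hypoxia and 0.0985 in normoxia in ACN. The summed blood cell markers reached at most 7.60 in hypoxia and 9.46 in normoxia.

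RNA quality did not match between all arrays. The 3'/5' signal ratio of GAPDH lay between 0.957 and 1.29 on the hypoxic arrays and between 0.939 and 67.3 on the normoxic arrays, and the value of 67.3 belonged to normoxic SHEP21N labelled with MYCN, where the ratio of ACTB was 94.0. Normoxic SHEP21N labelled without MYCN had an ACTB ratio of 5.05. Signals on the 4 SHEP21N arrays started at 3.3, whereas those on every other array reached down to 0.803 or less. The results are therefore also given without the line labelled SHEP21N with MYCN.

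Letters through which E2F binds were found in some member promoters, and 5 of these are shown. POLE2 and RFC3 had the smallest p for hypoxia over normoxia among members with such letters, and MCM6 held the most matches. E2F1 had the widest spread (SD) between lines, and PCNA was chosen by name as a marker of S phase. RefSeq (GRCh38.p14) gave a promoter of 300 bases, 250 before and 50 after the gene start, for 41 of the 49 members. Capitals mark each match to TTTCCCGC, TTTCGCGC, TTTGCCGC or TTTGGCGC on either strand. The sequences are printed 5' to 3' on the strand of the gene. POLE2 is shown as chr14:49688165-49688464 (minus strand), RFC3 as chr13:33817899-33818198 (plus strand), PCNA as chr20:5126573-5126872 (minus strand), MCM6 as chr2:135876394-135876693 (minus strand) and E2F1 as chr20:33686336-33686635 (minus strand).
POLE2: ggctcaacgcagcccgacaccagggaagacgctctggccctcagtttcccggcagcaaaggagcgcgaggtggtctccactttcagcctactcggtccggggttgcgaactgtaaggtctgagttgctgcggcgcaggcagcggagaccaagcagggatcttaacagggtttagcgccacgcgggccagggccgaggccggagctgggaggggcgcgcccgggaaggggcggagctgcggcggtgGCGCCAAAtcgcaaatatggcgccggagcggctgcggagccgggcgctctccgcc
RFC3: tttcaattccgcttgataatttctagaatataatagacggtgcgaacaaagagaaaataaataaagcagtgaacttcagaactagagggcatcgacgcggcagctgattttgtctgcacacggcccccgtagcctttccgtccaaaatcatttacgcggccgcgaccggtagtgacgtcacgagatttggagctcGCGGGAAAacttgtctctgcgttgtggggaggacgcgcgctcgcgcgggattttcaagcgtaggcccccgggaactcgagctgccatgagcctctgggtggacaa
PCNA: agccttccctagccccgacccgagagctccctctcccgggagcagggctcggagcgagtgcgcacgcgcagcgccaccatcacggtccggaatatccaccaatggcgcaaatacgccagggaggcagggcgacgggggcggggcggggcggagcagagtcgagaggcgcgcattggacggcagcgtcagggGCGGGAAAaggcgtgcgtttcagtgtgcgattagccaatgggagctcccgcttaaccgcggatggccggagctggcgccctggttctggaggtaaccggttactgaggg
MCM6: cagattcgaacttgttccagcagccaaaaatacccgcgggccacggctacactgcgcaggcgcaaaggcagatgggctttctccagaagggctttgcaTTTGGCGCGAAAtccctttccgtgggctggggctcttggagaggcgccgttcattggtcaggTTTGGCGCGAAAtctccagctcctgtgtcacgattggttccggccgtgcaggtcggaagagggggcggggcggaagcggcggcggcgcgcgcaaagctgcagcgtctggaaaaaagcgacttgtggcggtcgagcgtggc
E2F1: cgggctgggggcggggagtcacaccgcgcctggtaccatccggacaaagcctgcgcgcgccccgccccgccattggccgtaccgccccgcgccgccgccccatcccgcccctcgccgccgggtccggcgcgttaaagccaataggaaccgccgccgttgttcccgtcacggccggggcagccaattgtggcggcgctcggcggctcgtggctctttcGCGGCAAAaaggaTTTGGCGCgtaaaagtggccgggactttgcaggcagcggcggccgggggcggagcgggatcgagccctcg

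The match of POLE2 began 5 bases before the gene start, that of RFC3 55 bases and that of PCNA 59 bases before it. In MCM6 a match on each strand overlapped to form TTTGGCGCGAAA, and this run stood at 152 and again at 90 bases before the start. E2F1, which encodes the factor itself, held matches 33 and 20 bases before its own start. Such letters occurred in 19 of the 41 member promoters (46.3%), against 671 of the 15384 promoters of other and member genes on the array (4.36%) and 1164 of all 35116 promoters (3.31%). CCAAT, the letters bound by NF-Y, occurred in 24 member promoters (58.5%), against 36.1% of the array-gene promoters and 34.6% of all promoters. TTTGAA, the cell cycle homology region of late cell cycle genes, occurred in 1 member promoter (2.44%), against 11.9% of the array-gene promoters and 15.2% of all. ACGTG or GCGTG, the core letters of the hypoxia response element, occurred in 30 (73.2%), against 56.4% of the array-gene promoters and 48.4% of all. These are counts of letters and not of bound sites.

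Most members were lower in hypoxia, by small amounts. The mean change over the 11 lines was below 0 for 43 of the 49 members (87.8%), against 55.6% of all genes, and the median change was -0.21 for the members and -0.04 for all genes. None of the 49 reached an adjusted p of 0.05 in limma, where 32 of 19775 genes were called (0.162%, 3 of them lower, 0.0152%). At an unadjusted p of 0.05, 21 members were lower (42.9%), against 7.07% of all genes, and 0 were higher, against 3.6% of all genes. The methods' t-test, run here on the same log2 ratios of all genes without the fold filter that preceded it in the study, called 7 members after Benjamini-Hochberg adjustment (0.531% of all genes), namely CCNE2, POLE2, RRM2, RFC3, GINS3, GMNN and PCNA. With signals floored at 50, 3 members passed in limma (0.399% of all genes), and with genes of a mean signal under 100 left out, 5 passed (0.826% of 12587 genes). In at least 10 of the 11 lines, 15 members were lower (30.6%), against 3.44% of all genes. Without the line labelled SHEP21N with MYCN, 29 members were lower at an unadjusted p of 0.05 (59.2%, against 7.95% of all genes) and CCNE2 passed the adjusted limit (adjusted p = 0.0356, limma, 3 genes lower in all, 0.0152%). Without both SHEP21N lines the unadjusted count was 35 (8.47% of all genes). In bulk RNA, fewer cells in S phase and less RNA of a gene per cell cannot be told apart.

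**Figure D1:**
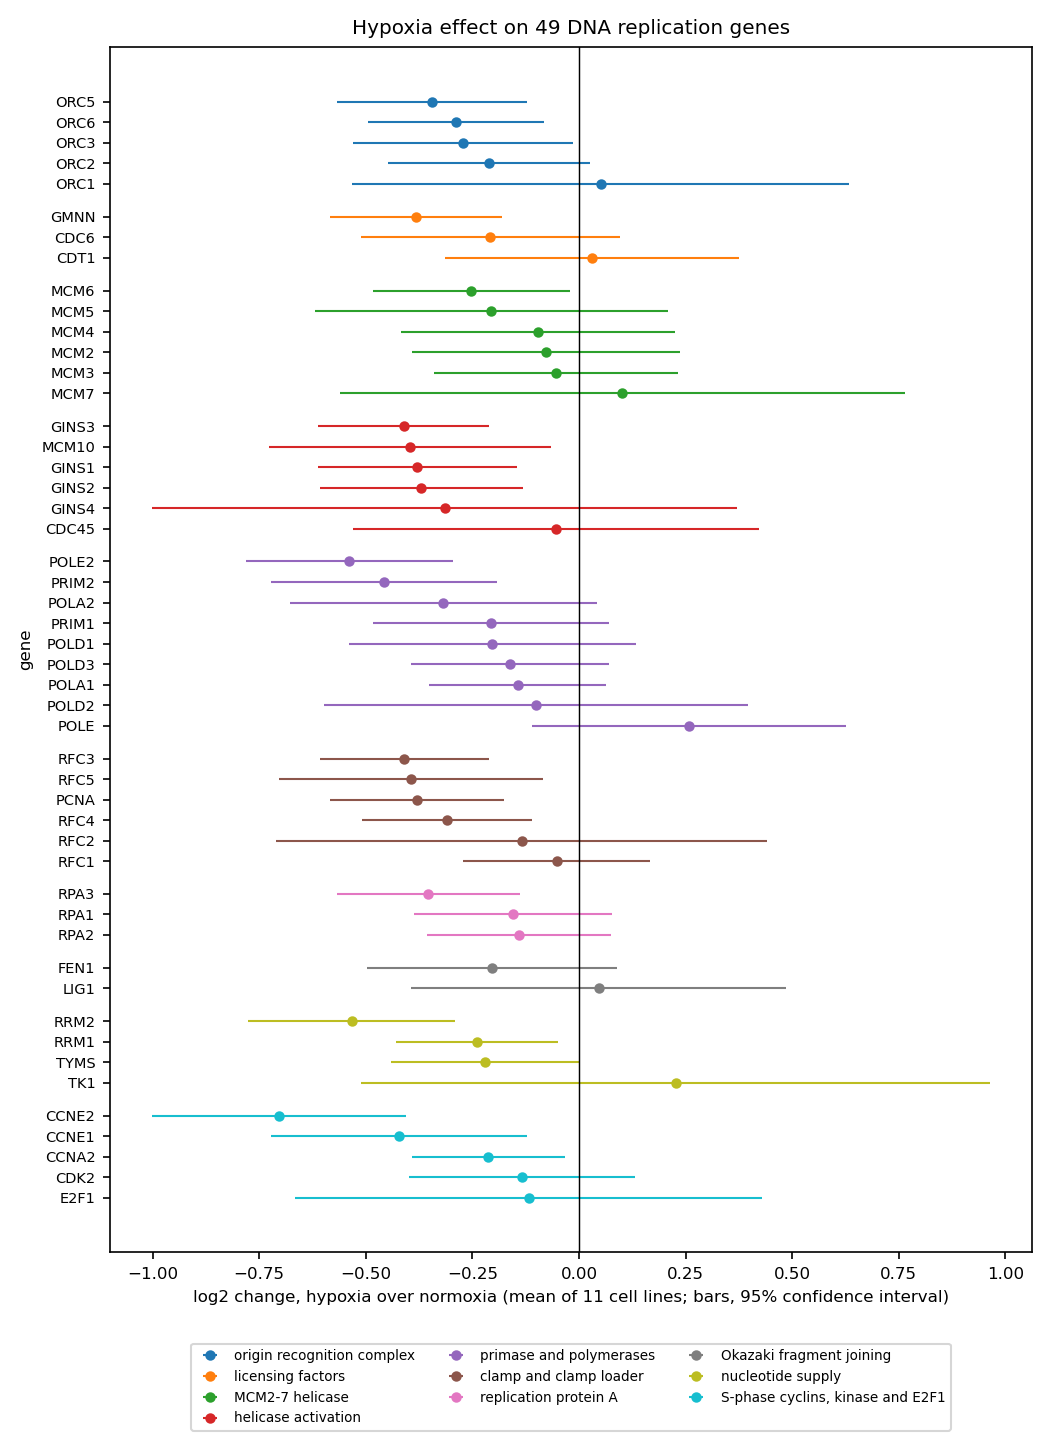
Mean log2 change of each of the 49 genes, hypoxia over normoxia, over 11 cell lines (x axis), with 95% confidence intervals of the limma fit, grouped and coloured by role (y axis). CCNE2 lies farthest left at -0.70 and POLE farthest right at 0.26.

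The cyclins of S-phase entry held the largest change. CCNE2, cyclin E2, which activates CDK2 at the G1/S boundary, had relative signals of 2.86, 5.25 and 17.5 (lowest, median, highest of 11 lines) in hypoxia and 3.90, 10.9 and 24.7 in normoxia. The ranges overlapped between the conditions, but within lines the hypoxic value was lower in 10 of 11, with only SHEP21N labelled with MYCN higher. Its mean log2 change was -0.70 ± 0.14 (SE, n = 11 lines, adjusted p = 0.0924, limma), or 1.63-fold lower, and -0.79 without that line. CCNE1, cyclin E1, had 2.90, 5.31 and 17.3 in hypoxia and 4.44, 7.87 and 20.9 in normoxia, and was lower in 9 lines with a mean of -0.42 ± 0.14 (adjusted p = 0.315, limma). CCNA2, cyclin A2, the partner of CDK2 during S phase, was lower in 10 lines by a mean of -0.21. CDK2 itself had a mean of -0.13, with 8 lines lower. E2F1 ranged over 0.628, 8.18 and 26.6 in hypoxia and 1.91, 12.1 and 22.7 in normoxia. Its changes scattered around 0, between -1.60 in SHEP-2 and 1.13 in ACN, so that its mean of -0.12 ± 0.25 (adjusted p = 0.904, limma) was smaller than its error, and it was -0.24 without SHEP21N labelled with MYCN.

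Nucleotide supply was led by RRM2, the cell-cycle-regulated small subunit of ribonucleotide reductase. RRM2 had relative signals of 50.5, 98.4 and 210 in hypoxia and 76.5, 124 and 291 in normoxia. It was lower in 10 of 11 lines, all but SHEP21N labelled without MYCN, with a mean of -0.53 ± 0.11 (adjusted p = 0.12, limma), or 1.45-fold. RRM1, the large subunit, was lower in 9 lines by a mean of -0.24. TYMS, thymidylate synthase, had 59.7, 213 and 344 in hypoxia and 104, 240 and 331 in normoxia, with a mean of -0.22 ± 0.10 (adjusted p = 0.473, limma). TK1, the S-phase thymidine kinase, had 10.7, 36.3 and 64.3 in hypoxia and 5.10, 17.8 and 67.1 in normoxia. Its mean of 0.23 ± 0.34 rested on a change of 3.66 in SHEP21N labelled with MYCN, where the normoxic array gave the lowest TK1 of all, and it was -0.12 without that line.

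Among the polymerases, POLE2, the second subunit of DNA polymerase epsilon, stood out. POLE2 had 3.37, 12.3 and 27.9 in hypoxia and 4.88, 17.2 and 41.5 in normoxia, lower in all lines but SHEP21N labelled with MYCN. The mean was -0.54 ± 0.11 (adjusted p = 0.117, limma), or 1.45-fold. PRIM2, the regulatory primase subunit, had 1.54, 5.38 and 8.78 in hypoxia and 2.08, 7.34 and 13.7 in normoxia, and was lower in 10 lines by -0.46 ± 0.12 (adjusted p = 0.231, limma), with only GI-ME-N higher. POLE, the catalytic subunit of polymerase epsilon, had a mean of 0.26 ± 0.17 (adjusted p = 0.623, limma) and was lower in 4 lines. Its change was 1.55 in SHEP21N labelled with MYCN, and its mean was 0.13 without that line. The other 6 genes of this role (PRIM1 of the primase, POLA1 and POLA2 of polymerase alpha, POLD1, POLD2 and POLD3 of polymerase delta) had means between -0.32 and -0.10, and none of the 6 had an unadjusted p below 0.05. Without SHEP21N labelled with MYCN, POLA2, PRIM1, POLD1 and POLD2 did, at -0.40, -0.27, -0.32 and -0.32 (unadjusted p = 0.0267, 0.0479, 0.0206 and 0.0166, limma).

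The clamp and its loader were lower in 6 of 6 genes on average, with a role median of -0.34. PCNA, the sliding clamp that holds polymerases on DNA, had relative signals of 52.7, 122 and 287 in hypoxia and 78.1, 159 and 310 in normoxia. It was lower in every line but SK-N-SH, where it differed by 0.07, and its mean was -0.38 ± 0.09 (adjusted p = 0.191, limma). RFC3, a small subunit of the clamp loader, had 17.7, 28.3 and 68.5 in hypoxia and 26.3, 39.7 and 79.9 in normoxia. It was lower in 11 of 11 lines, although by less than 0.01 in SHEP21N labelled with MYCN, with a mean of -0.41 ± 0.09 (adjusted p = 0.143, limma). RFC4 and RFC5, further small subunits, averaged -0.31 and -0.39. The large subunit RFC1 averaged -0.05. RFC2 averaged -0.13 with a change of 2.24 in SHEP21N labelled with MYCN, and -0.37 without that line (unadjusted p = 0.0395, limma).

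Helicase activation had the lowest role median, -0.37, with 4 of 6 genes lower at an unadjusted p of 0.05. GINS3, a subunit of the GINS complex, had 2.09, 10.1 and 31.4 in hypoxia and 2.80, 13.3 and 33.2 in normoxia. It was lower in 11 of 11 lines with a mean of -0.41 ± 0.09 (adjusted p = 0.145, limma). GINS1 had 11.5, 32.7 and 59.1 in hypoxia and 18.6, 49.9 and 74.7 in normoxia, lower in 10 lines by -0.38 ± 0.11 (adjusted p = 0.249, limma). GINS2 averaged -0.37 and MCM10, which activates the assembled helicase, -0.40. GINS4 averaged -0.32 ± 0.31, with a change of -2.94 in GI-LI-N, where its hypoxic relative signal was 0.781 against 5.98 in normoxia, and it was at -0.05 without that line and at -0.50 without SHEP21N labelled with MYCN. CDC45 averaged -0.05 ± 0.22, with lines on both sides of 0, and -0.16 without SHEP21N labelled with MYCN.

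The MCM2-7 genes, which encode the helicase ring that these factors activate, had a role median of -0.09 over the 11 lines and of -0.21 without SHEP21N labelled with MYCN. Over the 11 lines MCM6, with -0.25 ± 0.11 (adjusted p = 0.431, limma), was the only one of 6 with an unadjusted p below 0.05. MCM5, MCM4, MCM2 and MCM3 averaged -0.21, -0.10, -0.08 and -0.05 over the 11 lines, and -0.37, -0.22, -0.17 and -0.11 without SHEP21N labelled with MYCN, where MCM4, MCM5 and MCM6 had unadjusted p values of 0.0474, 0.0102 and 0.0498 (limma). MCM7 had 10.4, 61.7 and 159 in hypoxia and 14.1, 71.1 and 146 in normoxia, with a mean of 0.10 ± 0.30. Its change was 3.08 in SHEP21N labelled with MYCN, and its mean was -0.20 without that line. All 6 ring genes were lower in GI-LI-N, ACN, SK-N-BE2(C), IMR-32, SK-N-F1 and GI-ME-N, whereas 0 of 6 were lower in SK-N-SH and in SHEP21N labelled without MYCN.

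Of the licensing factors, only geminin was lower at an unadjusted p of 0.05. GMNN had relative signals of 23.7, 67.3 and 170 in hypoxia and 26.5, 100 and 189 in normoxia. It was lower in 11 of 11 lines, between -0.67 in SK-N-BE2(C) and -0.05 in SK-N-SH, with a mean of -0.38 ± 0.09 (adjusted p = 0.187, limma). CDT1, the loader that geminin inhibits, had 3.68, 22.7 and 57.8 in hypoxia and 3.98, 18.8 and 49.8 in normoxia, with a mean of 0.03 ± 0.16 (0.01 without SHEP21N labelled with MYCN) and 5 lines lower. CDC6, the other loader, averaged -0.21. In the origin recognition complex ORC5 averaged -0.34 ± 0.10 (adjusted p = 0.259, limma) and had 11.8, 17.9 and 21.7 in hypoxia and 13.7, 23.8 and 38.9 in normoxia. ORC6 and ORC3 averaged -0.29 and -0.27, ORC2 -0.21, and ORC1 0.05 ± 0.27 (-0.17 without SHEP21N labelled with MYCN).

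Replication protein A coats single-stranded DNA. Its smallest subunit, RPA3, had 36.9, 80.8 and 201 in hypoxia and 41.2, 108 and 229 in normoxia, and was lower in 10 lines by -0.35 ± 0.10 (adjusted p = 0.244, limma). RPA1 averaged -0.16 and RPA2 -0.14, neither with an unadjusted p below 0.05. FEN1, the nuclease that trims Okazaki fragments, averaged -0.21 and LIG1, the ligase that seals them, 0.05 (-0.12 without SHEP21N labelled with MYCN). With E2F letters, 19 members had a median change of -0.22 and 15 were lower. Without them, 22 members had a median of -0.21 and 20 were lower, so members with and without the letters had nearly the same median change.

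**Figure D2:**
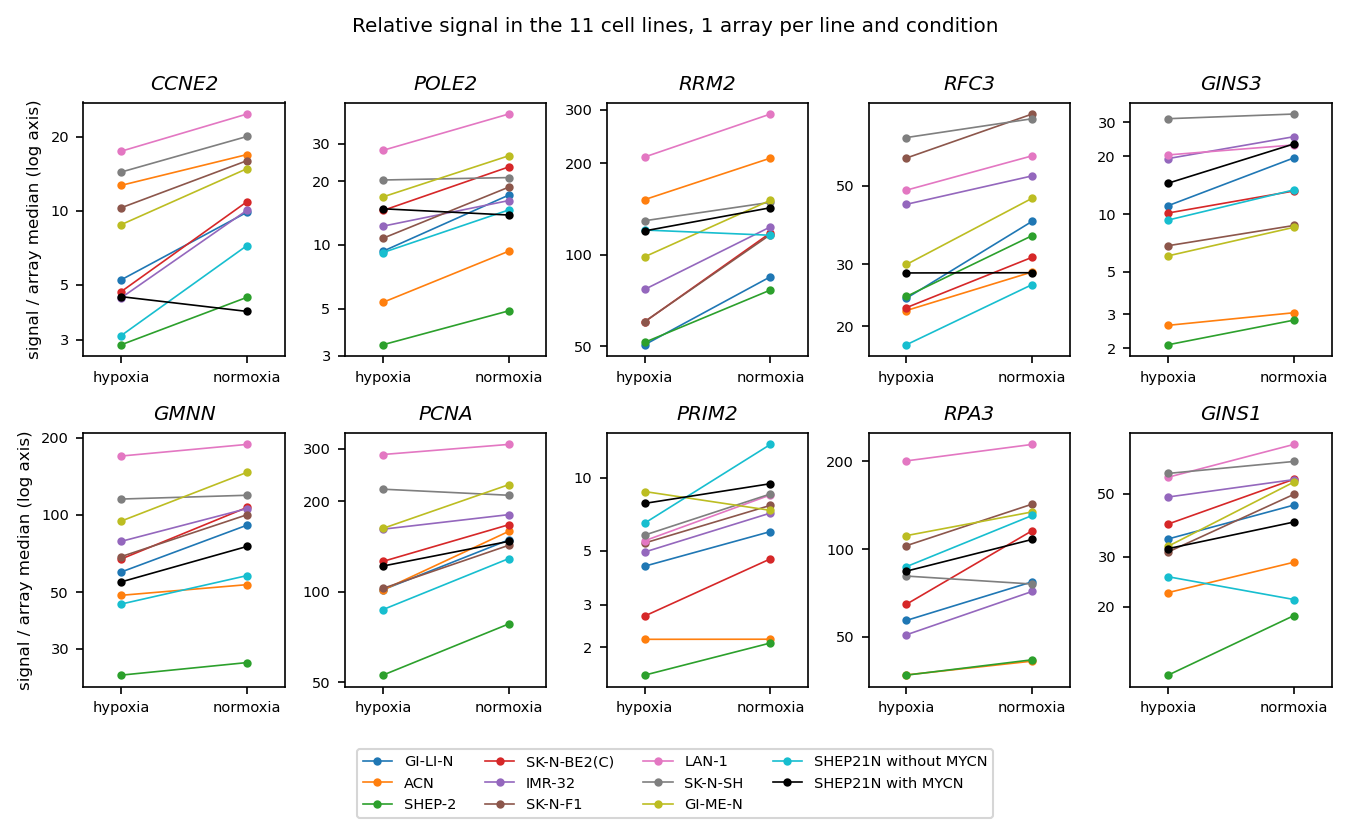
Relative signal (log axis) of the 10 members with the smallest p in hypoxia and normoxia, with 1 line per cell line joining its 2 arrays. GMNN, RFC3 and GINS3 were lower in hypoxia in 11 of 11 lines, and SHEP21N labelled with MYCN is the exception for CCNE2 and POLE2.

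The members with several probesets allowed a second reading. The 49 genes had 93 single-gene probesets, and 29 genes had more than 1. Of the 44 probesets not used above, 35 were lower in hypoxia and 36 had the sign of the probeset used. The second RRM2 probeset gave -0.44, the second CCNE2 probeset -0.55, and the further RFC3 probesets -0.39 and, on the dimmest of the 3, 0.07. For MCM7 the second probeset gave -0.09 and for TK1 0.03, so these 2 members depended on the probeset as well as on SHEP21N labelled with MYCN.

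The change differed between lines. In SK-N-BE2(C) 49 of 49 members were lower in hypoxia, in GI-LI-N 48, in GI-ME-N 47, in ACN and SK-N-F1 45 each, in IMR-32 43, in LAN-1 40 and in SHEP-2 38. In SK-N-SH 21 members were lower, in SHEP21N labelled with MYCN 21 and in SHEP21N labelled without MYCN 18. The share of all genes that was lower ran from 38.6% in SK-N-SH to 63.7% in GI-ME-N, so the counts of the members stand on unequal backgrounds. The median change of the members was -0.55 in GI-ME-N (all genes -0.18), -0.46 in SK-N-BE2(C) (-0.11), -0.43 in GI-LI-N (-0.07), -0.42 in SK-N-F1 (-0.14), -0.34 in ACN (-0.05), -0.27 in IMR-32 (-0.08) and -0.25 in SHEP-2 (0.08). It was -0.15 in LAN-1 (-0.06), 0.03 in SK-N-SH (0.12), 0.10 in SHEP21N labelled with MYCN (-0.02) and 0.15 in SHEP21N labelled without MYCN (-0.01). Only in the SHEP21N lines did the member median exceed that of all genes.

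**Figure D3:**
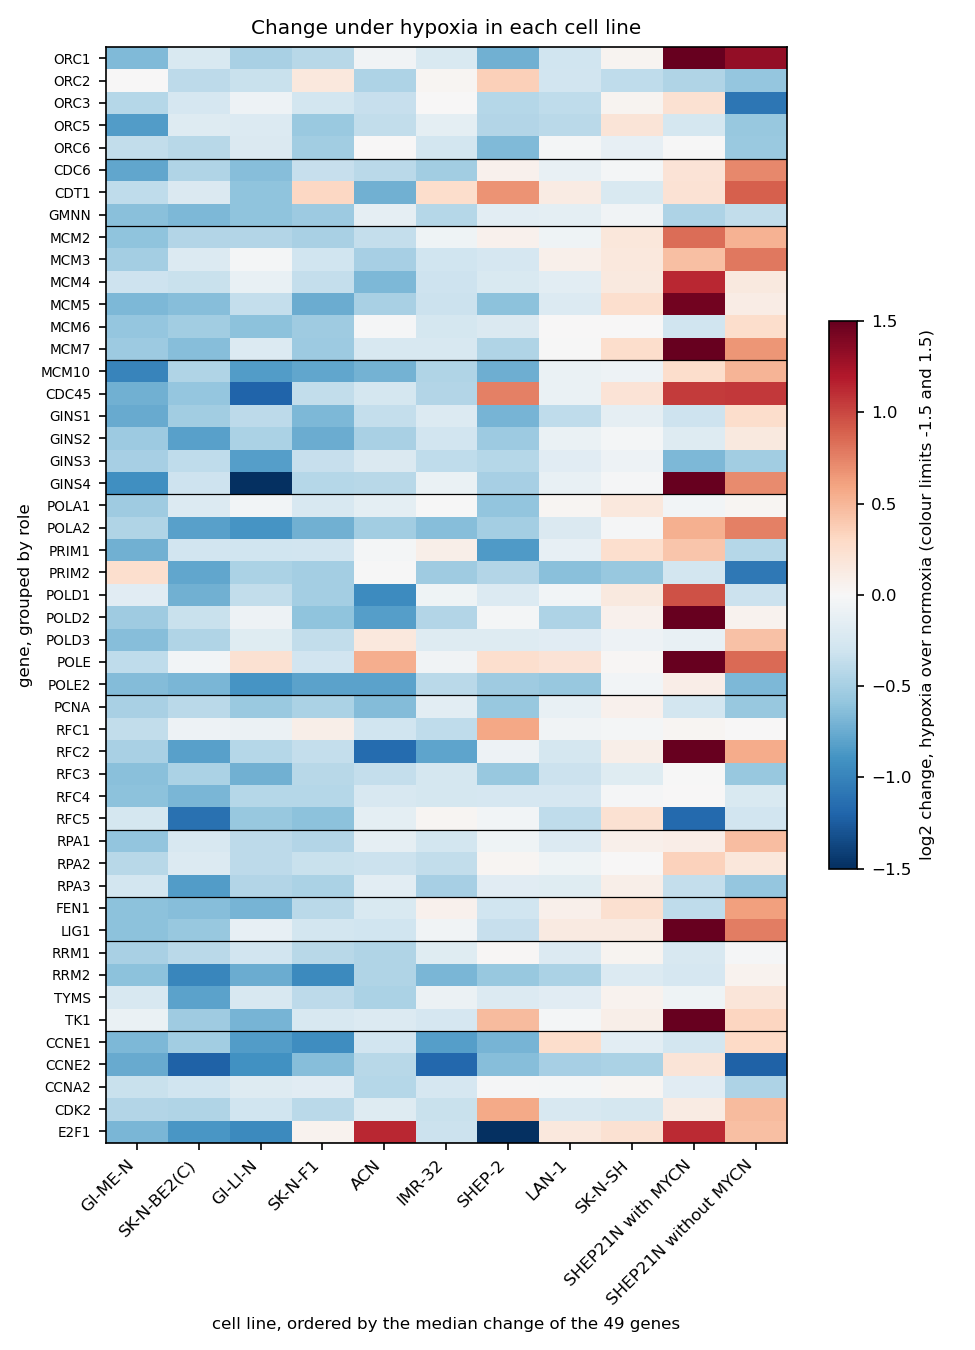
Log2 change of each of the 49 genes (rows, grouped by role) in each of the 11 cell lines (columns, ordered by the median change of the members), with colours limited to -1.5 and 1.5. The columns from GI-ME-N to IMR-32 are almost entirely blue, and the SK-N-SH and SHEP21N columns at the right, with 28, 28 (with MYCN) and 31 (without MYCN) members higher in hypoxia, hold most of the red cells.

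The effect in the 3 SHEP lines was set against that in the other 8 lines, because they came from different providers. In the SHEP lines 26 of 49 members were lower on average with a median of -0.02, and in the other lines 48 of 49 were lower with a median of -0.32, POLE being the exception at 0.03. The difference was above 0 for 37 members, with a median of 0.27, against 0.07 for all genes. No member passed an adjusted p of 0.05 for the difference in limma (2 of 19775 genes, 0.0101%, smallest member adjusted p = 0.228). At an unadjusted p of 0.05, 14 members were higher in SHEP (28.6%, against 7.99% of all genes) and 0 lower (3.72% of all genes). Without SHEP21N labelled with MYCN the count was 6 (12.2%, against 5.56% of all genes), and without SHEP21N labelled without MYCN it was 9 (8.73% of all genes). Without SHEP-2, ORC1 passed the adjusted limit (adjusted p = 0.0436, limma, 18 genes in all, 0.091%). ORC1 changed by -0.72 in SHEP-2, its lowest change in any line. It changed by 1.32 in SHEP21N labelled without MYCN and 2.30 in SHEP21N labelled with MYCN, so the call rests on the SHEP21N lines alone. Provider, lineage and array handling cannot be told apart here.

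The median difference was 0.74 for the licensing factors and 0.66 for the ring, and it was below 0 for 4 of 5 origin recognition genes. The MCM2-7 genes had a median change of 0.34 in SHEP and -0.28 in the other lines, and the difference was above 0 for 6 of 6. Without SHEP21N labelled with MYCN the median difference of these 6 genes was 0.36, close to the 0.36 of replication protein A and the 0.34 of nucleotide supply and below the 0.43 of Okazaki fragment joining. The origin recognition genes had -0.41 in SHEP and -0.24 in the other lines, with 1 of 5 differences above 0. CDC45 changed by 0.76 in SHEP-2, 1.04 in SHEP21N labelled with MYCN and 1.06 in SHEP21N labelled without MYCN. In the other 8 lines it lay between -1.20 in GI-LI-N and 0.21 in SK-N-SH. The difference of 1.39 for CDC45 had the smallest p among the members (unadjusted p = 0.000484, limma) and was 1.34 without SHEP21N labelled with MYCN. CDC45 was named after its values were seen. POLE2, PCNA, RFC3, GINS3, CCNE2 and GMNN averaged below 0 in both sets of lines.

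**Figure D4:**
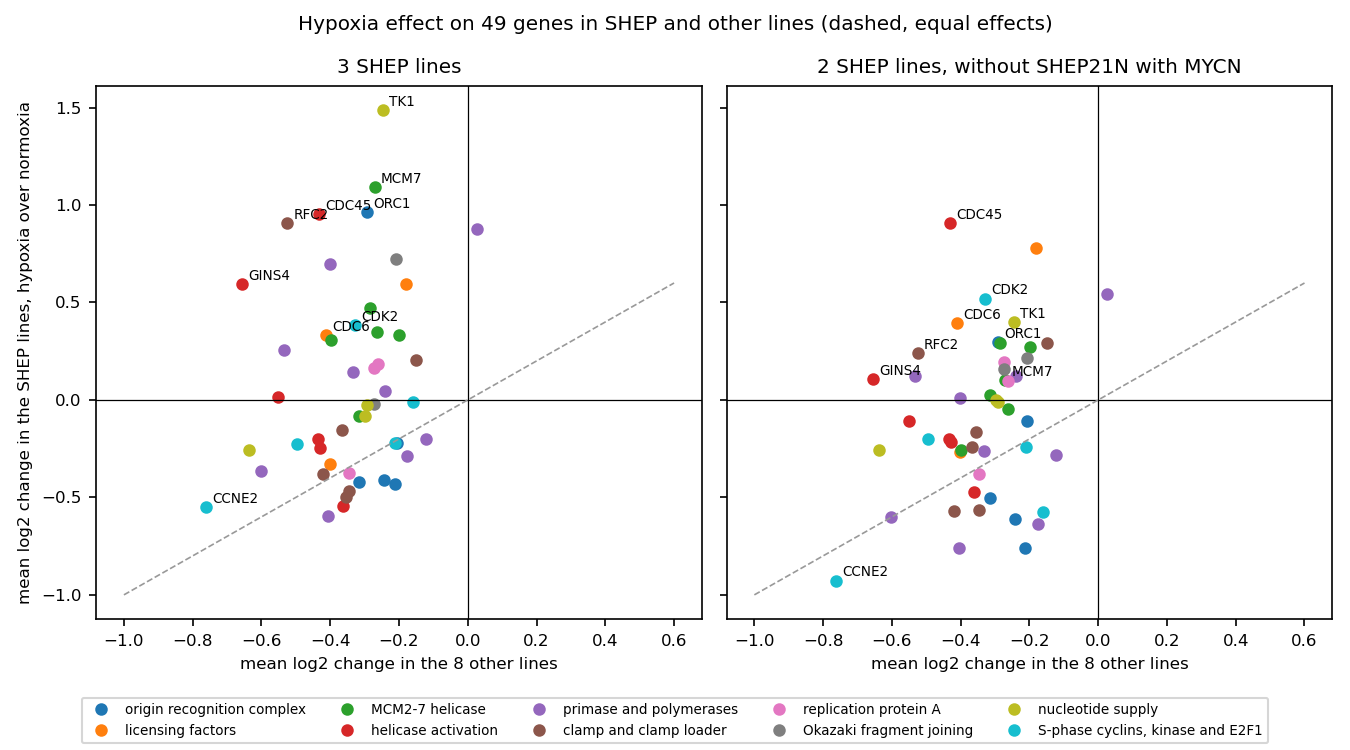
Mean log2 change, hypoxia over normoxia, of the 49 genes in the SHEP lines (y axis) against the other 8 lines (x axis), with all 3 SHEP lines (left) and without SHEP21N labelled with MYCN (right). Nearly all points lie left of 0 on the x axis, and CDC45, CDC6 and CDK2 lie above 0 on the y axis in both panels.

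The lines differed widely in level. Over the arrays of both conditions, the cell line term passed an adjusted p of 0.05 for 48 of 49 members (limma F test, 98%), against 64.2% of all genes, the exception being TK1 (adjusted p = 0.0607). In normoxia SHEP-2 was the lowest line for 30 members, and LAN-1 was the highest for 22, SK-N-SH for 12 and GI-ME-N for 8. The median deviation of the members from their mean over lines was 0.90 in LAN-1, 0.67 in SK-N-SH and 0.60 in GI-ME-N. It was 0.36 in IMR-32, 0.09 in SK-N-F1, 0.05 in GI-LI-N, 0.03 in SK-N-BE2(C), -0.20 in SHEP21N labelled with MYCN, -0.21 in SHEP21N labelled without MYCN, -0.72 in ACN and -1.44 in SHEP-2. Neighbours from SK-N-F1 to SK-N-BE2(C) lay within 0.06 of each other and have no order. The array median was highest in ACN and SHEP-2 (129 and 134 in normoxia), and dividing by it lowers these lines. It was lowest in LAN-1 and GI-ME-N (69.4 and 70.5 in normoxia), which the division raises. Under quantile normalization the deviations were 0.45 in LAN-1, 0.46 in SK-N-SH, 0.34 in IMR-32, 0.22 in SK-N-BE2(C) and 0.15 in GI-ME-N. They were -0.21 in ACN and -0.87 in SHEP-2, and the signs changed for SK-N-F1 (-0.15) and SHEP21N labelled with MYCN (0.04).

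**Figure D5:**
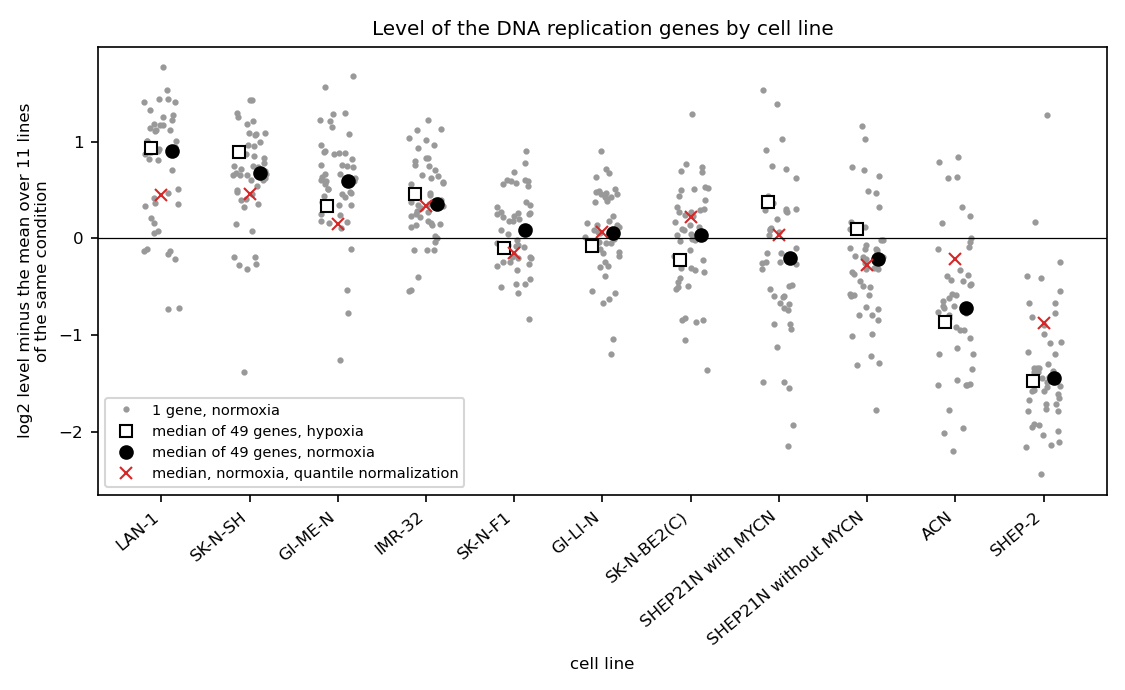
Log2 level of the 49 genes in each cell line minus the mean over the 11 lines of the same condition (y axis), with 1 grey point per gene in normoxia, squares and circles for the medians in hypoxia and normoxia, and crosses for the normoxic median after quantile normalization. SHEP-2 is the lowest line by every measure shown, and LAN-1 and SK-N-SH are the highest.

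E2F1 had the highest SD, 1.27 log2 units over the normoxic lines, and an 11.9-fold range between 1.91 in SHEP-2 and 22.7 in SK-N-SH. MCM7 had an SD of 1.24 (14.1 in ACN, 146 in LAN-1) and GINS3 an SD of 1.20 (2.80 in SHEP-2, 33.2 in SK-N-SH). For GINS3 the range was 23.2 times the residual SD of the fit, and for MCM7 4.50 times. TK1 had an SD of 1.17, CDT1 of 1.12 (3.98 in SHEP-2, 49.8 in SHEP21N labelled with MYCN), RFC2 of 1.11, CDC6 of 1.10 and GINS4 of 1.08. By range of relative signal CDC45 led at 15.7-fold, followed by TK1 at 13.1-fold, CDT1 at 12.5-fold, RFC2 at 12.4-fold and GINS4 at 12.1-fold. This order depended on dividing by the array median. On the deposited scale normoxic CDC45 ran from 305 in SHEP-2 to 2485 in LAN-1. CDT1 had a wider range there, from 532 in SHEP-2 to 5343 in SHEP21N labelled with MYCN. The lowest TK1 (5.10), the lowest GINS4 (2.33) and the highest CDT1 came from the normoxic SHEP21N array labelled with MYCN, with its high 3'/5' ratios. The next values were 8.73 for TK1 and 3.47 for GINS4, both in SHEP-2, and 37.8 for CDT1 in LAN-1. The SDs also include that array. At the other end stood RPA1 with an SD of 0.46 (22.6 in SK-N-BE2(C), 69.7 in GI-ME-N), TYMS with 0.48 and ORC5 with 0.50.

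The members largely went up and down together across lines. Over the 11 normoxic arrays the median pairwise correlation was r = 0.597, and the correlation of a member with the mean of the others had a median of 0.814 and a highest value of 0.966. The points share the scaling of their arrays, which moves all genes of an array together. RFC5 ran against the rest at r = -0.748, being highest in SK-N-BE2(C) (122) and SHEP-2 (121) and lowest in SK-N-SH (19.2). These RFC5 levels were read from its brightest probeset only (mean signal 5623). The levels of its further probesets (mean signals 2156 and 873.5) were not compared across lines. ORC5 was nearly unrelated to the rest at r = 0.109. The changes under hypoxia had a median pairwise r of 0.389 over the 11 lines.

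The SHEP21N lines differ by their label of MYCN overexpression, without replicates and therefore without a test. They also differ by tetracycline, in which only the line labelled without overexpression was kept, so label and tetracycline cannot be told apart. The brightest MYCN probeset was at 0.0650 in hypoxia and 0.177 in normoxia in the line labelled with overexpression. It was at 0.134 and 0.0650 in the line labelled without overexpression, and all these values lay below the array median. No other MYCN probeset was compared between the lines, so whether their MYCN levels differed was not tested. The values below therefore compare these libraries only. In hypoxia 42 of 49 members were higher in SHEP21N labelled with MYCN than without it, with a median log2 difference of 0.38, against 0.02 for all genes (51.3% higher). E2F1 was at 11.5 in SHEP21N labelled with MYCN and 5.01 in SHEP21N labelled without MYCN. It was the only member over 2-fold apart in hypoxia, whereas of all genes 11.6% were over 2-fold higher and 12.7% over 2-fold lower. In normoxia, with the array of high 3'/5' ratios, 29 members were higher and the median was 0.19, against -0.08 for all genes (46.2% higher). CCNE1 was then at 20.9 in SHEP21N labelled with MYCN and 7.87 in SHEP21N labelled without MYCN, and TK1 at 5.10 in SHEP21N labelled with MYCN and 36.9 in SHEP21N labelled without MYCN. The part of RNA quality in these differences was not tested.

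Genes of neighbouring functions were read from lists of their own. Of 27 further replication and chromatin assembly genes 26 were measured, and 6 were lower and 0 higher at an unadjusted p of 0.05, with a median of -0.20. Of all genes, 7.07% were lower and 3.6% higher at that limit. TIPIN, of the fork protection complex, averaged -0.65 ± 0.16 (adjusted p = 0.18, limma), lower in 10 of 11 lines. CDC7 and DBF4, the kinase and its activator that fire origins, averaged -0.26 and -0.33, and UHRF1, which recruits the maintenance DNA methyltransferase, -0.29. Among 12 other E2F and pocket protein genes, 1 was lower at that limit (E2F8, -0.35), E2F7, RBL1 and E2F6 averaged -0.23, -0.22 and -0.11, and the median was -0.09. Of 15 mitotic genes, 1 was lower (KIF11, -0.22), CDK1, CENPE and CCNB1 averaged -0.27, -0.26 and -0.17, and the median was -0.07. The counts of 1 in 12 and 1 in 15 lay near the share of all genes. MKI67, the proliferation marker, averaged 0.05 ± 0.11 and was lower in 6 lines. Of 5 CDK inhibitors 4 were measured, and CDKN1C averaged 0.47 ± 0.23, higher in 10 of 11 lines (adjusted p = 0.493, limma). CDKN2D averaged 0.30 ± 0.26 although it was lower in 7 lines. Its mean was 0.09 without SHEP21N labelled with MYCN and 0.07 with signals floored at 50. CDKN1B averaged 0.02 and CDKN1A -0.21. None of these genes passed the adjusted limit.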

How the data were processed

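The signals were intensity values made by the authors with MAS5, per the submitters' processing notes (version not given in the sources used here), and deposited after scaling to an average of 500. Signals were set relative to the median of their array on the log2 scale. Of 54675 probesets, 41091 name 1 gene, 1801 several, and 11783 none or are controls, which gave 19775 genes by the brightest probeset in mean log2 signal. No filter on low signals was applied, and all 22 arrays were used. Differences were fitted over all genes, in limma 3.58.1 under R 4.3.3, blocking on cell line, which pairs the arrays by their labels, with Benjamini-Hochberg adjustment and limits of 0.05. The same fit gave the F test of the cell line and, with an interaction term, the SHEP difference. The scripts were tested on simulated data. Promoters and positions came from RefSeq (GRCh38.p14), and figures and motif counts were made in Python 3.11.15.

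The members and lists were chosen with earlier results of these data known. Named were the 10 members with the smallest p, the 8 with the largest and the 3 with the smallest normoxic SD, E2F1, CCNE1, CDT1, GMNN, PCNA and RRM2, the 4 genes with the smallest p of each related list, and MYCN, VEGFA, BNIP3 and MKI67. Other members are given within their role, and CDK2, CDC45 and RFC5 were singled out after their values were seen. Alternatives were the deposited scale, quantile normalization, a floor of 50, averaging a gene's probesets, a minimum mean signal of 100, averaged or left-out lines, no block, the methods' t-test and an adjusted p of 0.01. Tumor profiles were not analysed here.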

Additional observations from a re-analysis of the deposited data

Results flagged for a closer look

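For CDC6, which loads the helicase ring, the relative signals of the 3 SHEP lines were all higher in hypoxia and those of the other 8 lines all lower. The difference in log2 change was 0.7439 (unadjusted p = 0.00765 and adjusted p = 0.321, limma). CDC6 changed by 0.07 in SHEP-2, 0.21 in SHEP21N labelled with MYCN and 0.72 in SHEP21N labelled without MYCN, and between -0.78 in GI-ME-N and -0.03 in SK-N-SH in the other lines. This split depended on dividing by the array median. On the deposited scale CDC6 was lower in hypoxia in SHEP-2 (802, against 816 in normoxia) and in SHEP21N labelled with MYCN (1108, against 1113). The difference was then 0.58.

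CDK2, the kinase of cyclins E and A, split in the same way in relative signal, with a difference of 0.7146 (unadjusted p = 0.00176 and adjusted p = 0.277, limma). It changed by 0.56, 0.12 and 0.48 in SHEP-2, SHEP21N labelled with MYCN and SHEP21N labelled without MYCN, and between -0.45 in SK-N-BE2(C) and -0.20 in ACN in the other lines. On the deposited scale CDK2 was lower in hypoxia in SHEP21N labelled with MYCN (2725, against 2920 in normoxia), and the difference was 0.55. Neither difference passed the adjusted limit. CDC6 and CDK2 were flagged because these same values differed between the groups of lines, so their unadjusted p values are no separate support. The share of all genes with such a split is not given here. With SHEP21N labelled with MYCN left out, the differences were 0.80 for CDC6 and 0.85 for CDK2.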

How the results depend on the processing

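With the cell line as a block no member passed the adjusted limit. A floor of 50 gave 3, a filter on a mean signal of 100 gave 5 of the members among 12587 genes, the methods' t-test 7, and leaving out SHEP21N labelled with MYCN 1, while leaving out 1 line at a time gave 0 to 1. The pairing of arrays by cell line carried the unadjusted count: with no replicate block it was 0 in place of 21, with 0 adjusted calls and the same median of -0.21. It was 35 without both SHEP21N lines and 18 to 29 with 1 line left out, lowest without GI-ME-N and highest without SHEP21N labelled with MYCN. The median change then lay between -0.27 and -0.19. The cell line term held for 44 members without SHEP-2 and 49 without SHEP21N labelled with MYCN. The count of members higher in SHEP at an unadjusted p was 8 under quantile normalization (6.05% of all genes). It was 6 without SHEP21N labelled with MYCN (5.56% of all genes) and 9 without SHEP21N labelled without MYCN (8.73% of all genes). It was 3 without both SHEP21N lines and 6 to 19 with 1 line left out, with 0 to 1 adjusted calls. The shares of all genes beside the 3 and the 19 are not given here, so these counts are not read as a result about the members. Over the named and member genes, 1521 values kept their direction and side of the adjusted limit, 33 turned direction, 17 gained the limit and 4 lost it.

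MYCN was -0.011 under quantile normalization, RPA1 0.068 with its probesets averaged, and CDC45 0.040 with the 3 lines of like profile (SK-N-SH, IMR-32, GI-LI-N) taken as 1, where VEGFA and BNIP3 lost the limit (adjusted p = 0.107 each, limma). With the 3 SHEP lines averaged, MCM7 was -0.12, TK1 -0.054, CDT1 -0.095, ORC1 -0.15 and LIG1 -0.10. Without SHEP21N labelled with MYCN, MCM7 was -0.20, TK1 -0.12, ORC1 -0.17 and LIG1 -0.12, and without both SHEP21N lines these were -0.29, -0.17, -0.34 and -0.22, with CDT1 at -0.086. With 1 line left out, the ranges were -0.16 to 0.060 for CDC45 (0.013 without GI-ME-N), -0.022 to 0.06 for CDKN1B (-0.018 without SHEP-2, -0.00052 without GI-ME-N), -0.24 to 0.030 for E2F1, -0.056 to 0.11 for CDT1 (-0.034 without SHEP-2), -0.10 to 0.17 for MYCN, -0.17 to 0.13 for ORC1, -0.12 to 0.11 for LIG1, -0.20 to 0.18 for MCM7 and -0.12 to 0.32 for TK1. Without SHEP21N labelled without MYCN, MYCN was -0.078, ORC1 -0.076 and LIG1 -0.026. The cause was not tested. With 1 array per line and condition, the spread within a line is unknown.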

Other observations

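Members on 1 chromosome are given side by side. Chromosome 7 held the most members, ORC5, MCM7, POLD2, RFC2 and RPA3, with mean changes of -0.34, 0.10, -0.10, -0.13 and -0.35. Chromosome 16 held ORC6, CDT1, GINS2 and GINS3, with -0.29, 0.03, -0.37 and -0.41. On the normoxic array of SHEP21N labelled with MYCN, whose 3'/5' ratios were 67.3 for GAPDH and 94.0 for ACTB, MCM7, POLD2 and RFC2 had relative signals of 18.9, 23.4 and 12.4, against 54.5, 56.4 and 25.7 in SHEP21N labelled without MYCN, while RPA3 had 108, against 130, and ORC5 25.8, against 26.4. The part of RNA quality in these values was not tested. In hypoxia the same 3 genes (MCM7, POLD2, RFC2) had 159, 98.5 and 58.5 in SHEP21N labelled with MYCN, against 86.1, 58.5 and 38.0 in SHEP21N labelled without MYCN.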
